A study of Mus musculus with 6 samples.

Results

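This account concerns 9 receptors through which bone cells read hormones and vitamins: Pth1r, Ghr, Vdr, Nr3c1, Esr1, Thra, Thrb, Rara and Rarg. They were chosen by symbol, as the rows of the gene table that carry these names, and are 9 of its 28802 genes. Messenger RNA from mouse cranial bone was sequenced as paired reads of 150 bp in 6 libraries. The 3 Met500uM libraries are labelled as treated with 500 µM metformin, a biguanide drug used in type 2 diabetes, and belong to the group given metformin in a scaffold of α-CSH and nHA (calcium sulfate hemihydrate and nano-hydroxyapatite, both mineral bone fillers). The 3 Met0uM libraries are labelled as control at 0 µM. The labels describe a cranial defect 5 mm wide as the model for all samples. They do not say whether the control received the scaffold without drug, whether the RNA came from tissue or from cultured cells, or what age, sex or strain the mice had. Nor is it stated that replicates came from different animals, so p-values measure only the spread between these libraries, which may be technical.

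Total estimated counts lay between 64683314 and 70955139 in the Met500uM libraries and between 63174927 and 70318881 in the Met0uM libraries. The osteoblast markers fitted the label of bone: all 9 averaged at least 1 FPKM (a read level normalised for transcript length and library size), and their summed level was 8698 to 8870 FPKM in Met500uM and 7214 to 8239 FPKM in Met0uM. Of 5 osteoclast markers in the table only Ctsk reached a mean of 1 FPKM, of 8 haematopoietic markers only Lyz2 did, and of 6 endothelial markers none did. Met0uM replicate 1 stood apart from the other 5 libraries on the second principal component, at 45.1, whereas the other Met0uM libraries were at -24.4 and -27.2. In bulk RNA a lower level can come from fewer cells of a type or from less RNA per cell, and these cannot be told apart here.

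Pth1r and Ghr sit in the cell membrane: Pth1r is the G protein-coupled receptor for parathyroid hormone (PTH) and PTH-related protein, and Ghr is the growth hormone receptor, which signals through the kinase Jak2 and Stat5. The other 7 are nuclear receptors, transcription factors that act at DNA and are controlled by a small lipophilic ligand. Vdr binds the active form of vitamin D, Nr3c1 glucocorticoids, Esr1 estrogens, Thra and Thrb thyroid hormone, and Rara and Rarg retinoic acid, a product of vitamin A. PTH and vitamin D govern calcium and bone turnover, growth hormone and thyroid hormone drive skeletal growth, and glucocorticoids, estrogens and retinoids each alter how bone is formed and resorbed.

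The DNA-binding part of a nuclear receptor is its most conserved stretch, and it sets which DNA element the receptor reads. The coding sequence of the first zinc finger, from its first cysteine to the end of the P box, is shown for 6 of the nuclear receptors because it shows how the members are related and how well reads can tell them apart. Sequences are 69 bases of coding strand, 5′ to 3′, from GENCODE M21 (GRCm38) transcripts, and capitals mark the 18 bases of the P box, the stretch that contacts the element.
Vdr: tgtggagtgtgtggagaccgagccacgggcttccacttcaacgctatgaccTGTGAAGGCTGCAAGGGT
Esr1: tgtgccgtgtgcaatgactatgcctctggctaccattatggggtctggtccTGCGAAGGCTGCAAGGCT
Thra: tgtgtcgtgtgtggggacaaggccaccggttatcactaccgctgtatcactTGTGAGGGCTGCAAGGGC
Thrb: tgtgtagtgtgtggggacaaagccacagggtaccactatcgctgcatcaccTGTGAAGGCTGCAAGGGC
Rara: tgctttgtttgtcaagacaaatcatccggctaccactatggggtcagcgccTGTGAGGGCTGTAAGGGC
Rarg: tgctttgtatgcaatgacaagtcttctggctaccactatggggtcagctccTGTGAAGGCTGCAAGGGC
Thra and Thrb had identical bases at 60 of 69 positions, and all 23 codons encoded the same residue. Rara and Rarg had 59 of 69 identical bases and the same residue at 21 of 23 codons. In the other pairings identity was 59.4% to 78.3% of bases. The P box of the other 5 encoded the same peptide, and that of Esr1 differed from it only in the last residue. The longest exact run shared by transcripts of Thra and Thrb was 26 bases and of Rara and Rarg 24 bases, against reads of 150 bp.

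All 9 receptors were detected in all 6 libraries, and 8 were expressed at 1 FPKM or more in each of them. The exception was Esr1, which lay between 0.913 and 1.18 FPKM. On the per-length FPKM scale, Pth1r was the most abundant receptor, above 96.6% of the 17375 genes tested, and Esr1 the least, above 32.5% of them. By mean level over the 6 libraries the order was Pth1r, Ghr, Thra, Rarg, Nr3c1, Rara, Vdr, Thrb and Esr1. Pth1r exceeded Ghr 2.18-fold in mean level, with 1.58-fold the smallest ratio within a library. Thra and Rarg were close in level, with a ratio of means of 1.04, and their order followed the group: Thra was below Rarg in each of the 3 Met500uM libraries, where their ranges overlapped, and above it in each of the 3 Met0uM libraries, where they did not. Vdr was above Thrb in 5 of 6 libraries, and their ranges overlapped in Met0uM but not in Met500uM. Ghr exceeded Thra in all 6 libraries, with no overlap within either group. For each of the other neighbours in the order, the lowest library of the higher gene was above the highest library of the lower gene. The step from Thrb to Esr1 was the widest, at 4.08-fold.

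**Figure D1:**
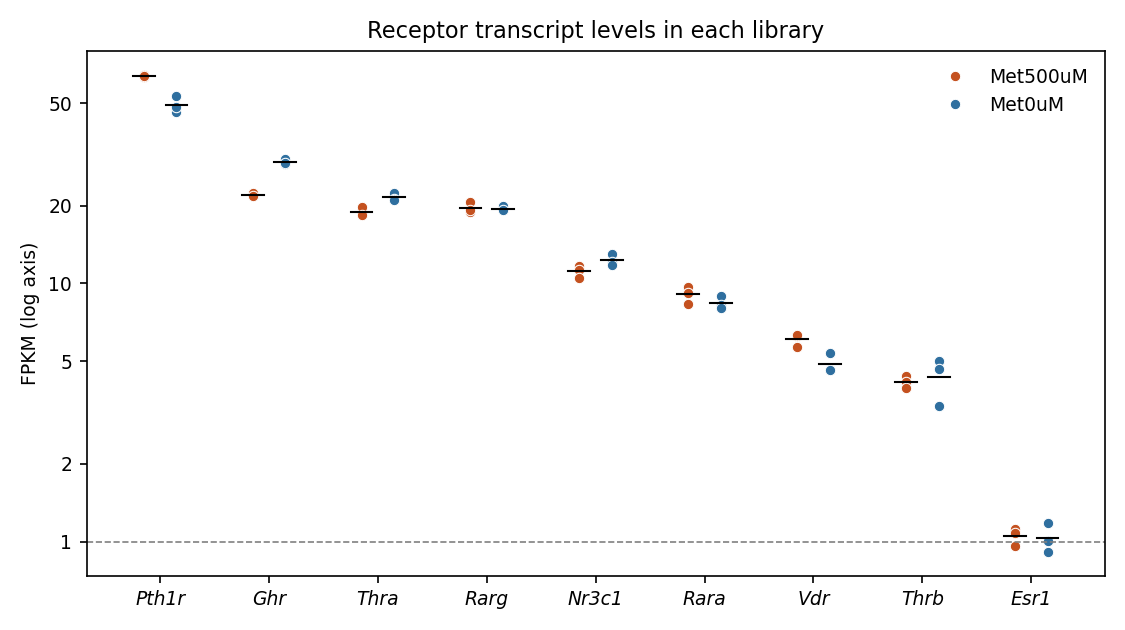
Level of each receptor in each library, as FPKM on a log axis, with Met500uM libraries in orange, Met0uM libraries in blue and a bar at each group's mean. Pth1r stands at the top between 46.1 and 64.5 FPKM, and Esr1 straddles the dashed line at 1 FPKM.

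The comparison of Met500uM with Met0uM asks whether the receptors for these hormones were expressed at another level in the metformin scaffold group. In edgeR's quasi-likelihood test with Benjamini-Hochberg adjustment over all genes tested, at a threshold of 0.05, 3 of the 9 receptors passed: Pth1r and Vdr were higher in Met500uM and Ghr was lower. Among all 17375 genes, 749 passed (4.31%), of which 496 (2.85% of those tested) were higher and 253 (1.46%) lower. With library totals in place of TMM scaling, the split over all genes was 429 higher and 380 lower, and the same 3 receptors passed in the same directions. TMM-normalised counts per unit of library size (CPM) of the groups did not overlap for 4 of the 9, namely Pth1r, Ghr, Thra and Vdr, against 24% of all genes tested. The median log2 fold change of all genes tested was -0.0045.

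**Figure D2:**
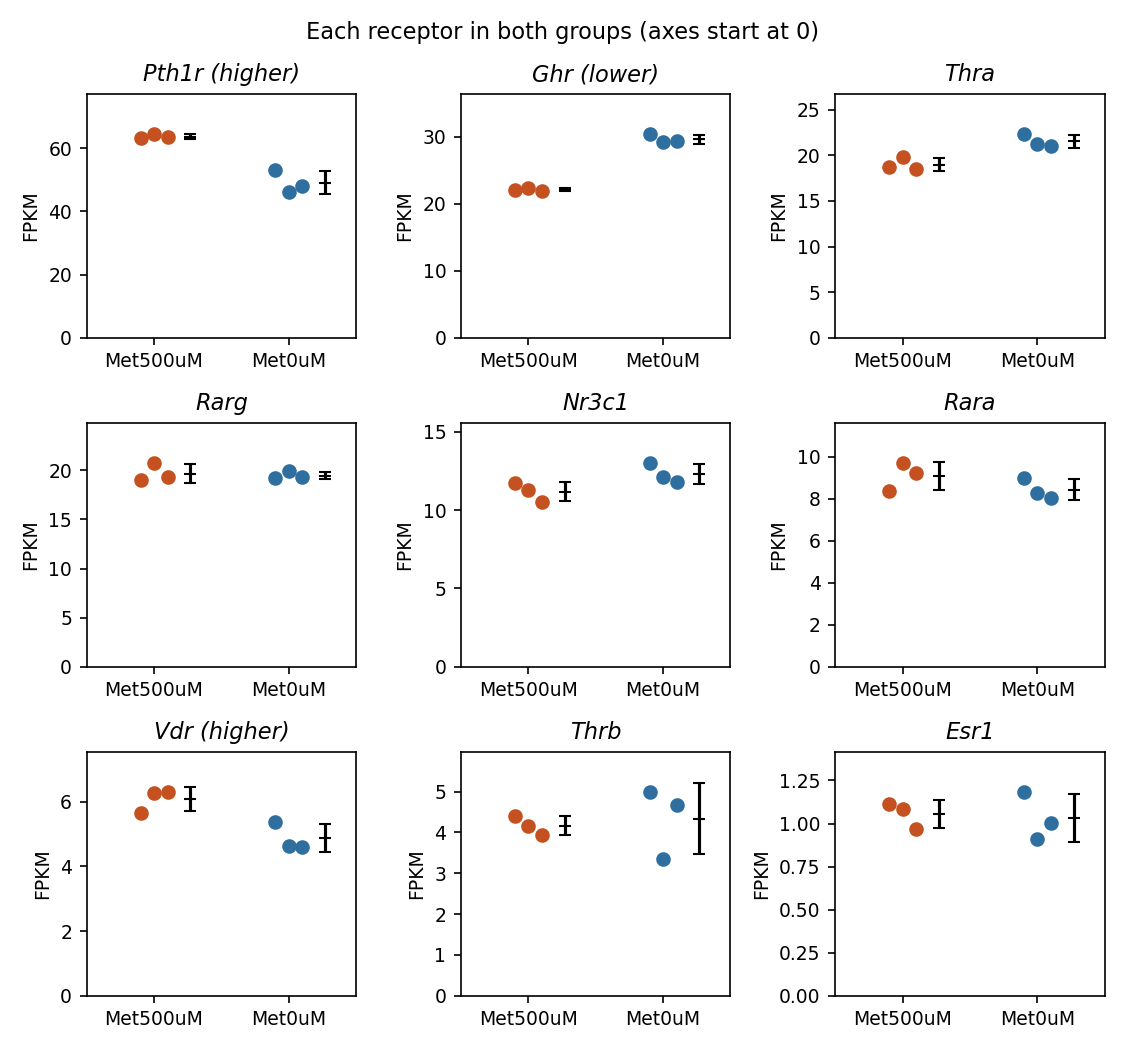
FPKM of each receptor in the 3 Met500uM libraries (orange) and the 3 Met0uM libraries (blue), each panel on its own axis from 0, with the mean and SD beside the points. The groups are separate for Pth1r, Ghr, Vdr, Thra and Nr3c1, of which the first 3 passed the test.

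Pth1r was 1.33-fold higher in Met500uM. It had 63.1, 64.5 and 63.5 FPKM in the Met500uM libraries, against 53.1, 46.1 and 48.2 FPKM in the Met0uM libraries. Every Met500uM library was above every Met0uM library, and the Met500uM values spread over less than the Met0uM values. The means were 63.7 ± 0.706 FPKM in Met500uM and 49.1 ± 3.60 FPKM in Met0uM (SD, n = 3 each), and the log2 fold change was 0.41 ± 0.058 (SE; 95% interval 0.29 to 0.54; edgeR adjusted p = 0.00283). The estimate rests on 10588 to 14848 counts per library, and it passed in all 14 alternative analyses. The gene lies at chr9:110722085-110747145 on the minus strand, coordinates that match GENCODE M21 (GRCm38), the build to which all coordinates here refer. It shares 95 exonic bases (3.25% of its exonic length) with Myl3 on the other strand. Myl3 held at most 1.05% as many counts as Pth1r in any library, and its log2 fold change of 1.10 ± 0.31 did not pass (edgeR adjusted p = 0.0731).

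Some cell type markers also moved between the groups. The summed chondrocyte markers were 83.2 to 84.6 FPKM in Met500uM and 58.9 to 65.0 FPKM in Met0uM, with 2 of 8 higher (Col2a1 and Col11a2). Col2a1 alone was at 56.4 ± 1.24 FPKM in Met500uM and 31.8 ± 2.26 FPKM in Met0uM. Sox9 went the other way, at 24.1 ± 1.64 FPKM in Met500uM and 27.1 ± 1.37 FPKM in Met0uM, and did not pass (edgeR adjusted p = 0.325). Comp averaged 1.17 FPKM in Met500uM and 1.43 FPKM in Met0uM and did not pass either. Acan, a defining cartilage gene, was at 0, 0.0120 and 0 FPKM in Met500uM and at 0 in all 3 Met0uM libraries. Of the osteoblast markers 5 of 9 passed as higher (Sp7, Alpl, Ibsp, Bglap and Sparc) and 0 as lower. Runx2 had the lower level in Met500uM, at 25.0 ± 1.10 FPKM, against 29.0 ± 2.49 FPKM in Met0uM. Its groups did not overlap, but it did not pass (edgeR adjusted p = 0.1785). Col1a1, Col1a2 and Spp1 did not pass either. Over all genes tested, 2.85% were higher and 1.46% lower, the shares beside which these marker counts stand. The osteocyte markers summed to 39.7 to 42.9 FPKM in Met500uM and 30.9 to 36.2 FPKM in Met0uM. Dmp1, Mepe and Phex, 3 of the 6, were higher. Pdpn, the most abundant of the list, had the lower level in Met500uM. It was at 21.98 ± 1.594 FPKM in Met500uM and 25.19 ± 2.174 FPKM in Met0uM and did not pass (edgeR adjusted p = 0.3247). Sost averaged 0.02453 FPKM in Met500uM and 0.02053 FPKM in Met0uM. Fgf23 averaged 0.009295 FPKM in Met0uM and was absent in Met500uM, and both genes were too low to test. Kidney tubule markers, from a tissue also rich in Pth1r and Vdr, summed to 3.37 to 6.63 FPKM in Met500uM and 13.5 to 15.1 FPKM in Met0uM. Of these, 2 of 7 were lower (Kap and Slc34a1). Kap alone was at 3.19 ± 1.86 FPKM in Met500uM and 12.2 ± 0.861 FPKM in Met0uM. Aqp2 averaged 0.365 FPKM in Met500uM and 0.232 FPKM in Met0uM, and Cubn 0.513 FPKM in Met500uM and 0.510 FPKM in Met0uM, and neither passed. The part of these cell types in the levels of the receptors was not tested.

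Few of the signalling genes around Pth1r passed. The 33 tested genes encode G proteins, adenylyl cyclases, protein kinase A, arrestins, phosphodiesterases, receptor accessory proteins and other signalling proteins. Of these, 1 was higher and 1 lower (6.06%, against 4.31% of all genes), with a median log2 fold change of -0.0037. At an unadjusted p under 0.05 there were 11, but the share of all genes at that level is not given here, so the count has no reference. The CPM of the groups did not overlap for 15 (against 24% of all genes). DESeq2 called 4 (Adcy6, Pde3a, Prkacb and Ramp1), against 1310 of 28792 genes in all. That base is wider than the 17375 genes kept for edgeR, so its share is not like for like with the list's. With limma on log2(FPKM + 1) there was 1 (Ramp1), against 568 of 13344 genes. Gnas, which encodes the stimulatory G protein that Pth1r couples to, was the most abundant, at 70.0 ± 1.94 FPKM in Met500uM and 68.4 ± 0.796 FPKM in Met0uM, and did not pass (log2 fold change 0.07 ± 0.052, edgeR adjusted p = 0.5). Ramp1, an accessory protein known best as the partner of the calcitonin receptor-like receptor, was higher. It had 22.7, 21.6 and 25.8 FPKM in Met500uM, against 14.5, 14.8 and 16.1 FPKM in Met0uM, with no overlap (log2 fold change 0.67 ± 0.076, edgeR adjusted p = 0.00125). The gene of that partner, Calcrl, averaged 0.0136 FPKM in Met500uM and 0.00341 FPKM in Met0uM and was too low to test. Pde3a, which degrades cyclic AMP, was lower, at 0.331, 0.374 and 0.380 FPKM in Met500uM, against 0.698, 0.658 and 0.512 FPKM in Met0uM (log2 fold change -0.74 ± 0.14, edgeR adjusted p = 0.0111, and 0.0572 without Met0uM replicate 2).

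Genes known to respond to PTH in bone cells changed in both directions. Of 23 tested, 3 were higher and 3 lower (26.1%, against 4.31% of all genes), with a median of 0.16. Has2, a hyaluronan synthase, had 6.35, 5.83 and 6.54 FPKM in Met500uM, against 4.85, 4.58 and 4.54 FPKM in Met0uM (log2 fold change 0.46 ± 0.072, edgeR adjusted p = 0.00448), and passed in all 14 alternatives. Nr4a1 and Nr4a3 are orphan nuclear receptors induced early by cyclic AMP. Nr4a1 was at 6.22, 7.42 and 8.39 FPKM in Met500uM, against 5.79, 4.44 and 4.29 FPKM in Met0uM (log2 fold change 0.64 ± 0.13, edgeR adjusted p = 0.0164). Nr4a3 was scarce, at 0.367, 0.518 and 0.392 FPKM in Met500uM, against 0.261, 0.190 and 0.256 FPKM in Met0uM (log2 fold change 0.89 ± 0.21, edgeR adjusted p = 0.0408). The groups were separate for both genes, but both calls were lost on leaving out any of Met500uM replicates 2 and 3 and Met0uM replicates 2 and 3 (edgeR adjusted p = 0.0666 to 0.0847 for Nr4a1 and 0.0890 to 0.157 for Nr4a3), and that of Nr4a3 also without Met0uM replicate 1 (edgeR adjusted p = 0.0706).

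The lower PTH-responsive genes were Igf1, Rgs2 and Vcam1. Rgs2, a regulator that shortens G protein signals, had 3.47, 2.90 and 3.73 FPKM in Met500uM, against 4.61, 4.51 and 5.43 FPKM in Met0uM (log2 fold change -0.49 ± 0.11, edgeR adjusted p = 0.0323). Vcam1, a cell adhesion molecule, had 9.74, 9.10 and 8.52 FPKM in Met500uM, against 11.03, 12.1 and 10.9 FPKM in Met0uM (log2 fold change -0.27 ± 0.064, edgeR adjusted p = 0.0362). Both were lower in each Met500uM library, yet leaving out single libraries ended both calls: for Rgs2 any library but Met500uM replicate 3 (edgeR adjusted p = 0.0525 to 0.127), and for Vcam1 replicate 2 or 3 of either group (edgeR adjusted p = 0.0755 to 0.189). Mmp13, a collagenase that PTH induces in osteoblasts, was the most abundant of the list at 354 ± 24.5 FPKM in Met500uM and 343 ± 14.0 FPKM in Met0uM, and did not pass (edgeR adjusted p = 0.562). Pthlh, the gene of PTH-related protein, the local ligand of Pth1r, was low, with 46 to 89 counts per library. It was at 0.604 ± 0.163 FPKM in Met500uM and 0.461 ± 0.0631 FPKM in Met0uM and did not pass (log2 fold change 0.41 ± 0.30, edgeR adjusted p = 0.524).

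Ghr was the second most abundant receptor and was lower in Met500uM, at 0.767 of the Met0uM level. It had 22.04, 22.4 and 21.9 FPKM in the Met500uM libraries, against 30.4, 29.1 and 29.4 FPKM in the Met0uM libraries. The groups lay far apart relative to their spread, with coefficients of variation of 1.08% in Met500uM and 2.19% in Met0uM. The means were 22.1 ± 0.238 FPKM in Met500uM and 29.6 ± 0.648 FPKM in Met0uM (SD, n = 3 each; log2 fold change -0.38 ± 0.049, 95% interval -0.49 to -0.27, edgeR adjusted p = 0.00187). With 14236 to 20727 counts per library, the call held in all 14 alternatives. The gene is on chromosome 15, minus strand, and its range in the table has the same lower coordinate as in GENCODE M21 but a different upper one, which is its 5′ side.

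Igf1, the growth factor that growth hormone induces, was lower as well. It had 9.83, 10.1 and 9.51 FPKM in Met500uM, against 12.2, 12.3 and 11.2 FPKM in Met0uM, again without overlap (log2 fold change -0.24 ± 0.054, edgeR adjusted p = 0.0286). Its call was lost on leaving out Met500uM replicate 2 or 3 or Met0uM replicate 1 or 2 (edgeR adjusted p = 0.0585 to 0.151). Igf1 was the only gene of 21 tested in growth hormone signalling and response that passed (4.76%, close to the 4.31% of all genes), and the list's median was -0.04. Jak2, the kinase bound to Ghr, was at 19.4 ± 0.333 FPKM in Met500uM and 21.6 ± 0.677 FPKM in Met0uM, a log2 fold change of -0.12 ± 0.050 that did not pass (edgeR adjusted p = 0.230). Stat5b gave -0.18 ± 0.072 (edgeR adjusted p = 0.210) and Socs2, a feedback inhibitor of Ghr, -0.08 ± 0.054 (edgeR adjusted p = 0.478). Grb10, an adaptor that dampens growth factor receptors, was the most abundant at a mean of 31.9 FPKM. Igf2, the other insulin-like growth factor, was higher: it had 39.0, 41.1 and 42.4 FPKM in Met500uM, against 33.2, 33.8 and 29.2 FPKM in Met0uM (log2 fold change 0.39 ± 0.066, edgeR adjusted p = 0.00716), and passed in all 14 alternatives. Igf1 and Igf2 were the 2 of 4 tested ligand genes that passed (50%, against 4.31% of all genes).

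Vdr, a low-level receptor here, was 1.28-fold higher in Met500uM. It had 5.66, 6.28 and 6.30 FPKM in the Met500uM libraries, against 5.36, 4.62 and 4.62 FPKM in the Met0uM libraries. The groups did not overlap, but Met500uM replicate 1 and Met0uM replicate 1 lay close together. The means were 6.08 ± 0.363 FPKM in Met500uM and 4.87 ± 0.429 FPKM in Met0uM (SD, n = 3 each; log2 fold change 0.36 ± 0.077, 95% interval 0.19 to 0.53, edgeR adjusted p = 0.0223). This call was the least stable of the 3. It was lost on leaving out Met500uM replicate 2 or 3 or Met0uM replicate 2 or 3 (edgeR adjusted p = 0.0956 to 0.112), with no filter on low counts (edgeR adjusted p = 0.0605) and in limma on log2(FPKM + 1) (adjusted p = 0.0756), with the same direction each time. Vdr had 2001 to 2762 counts per library and lies at chr15:97854425-97910630 on the minus strand.

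Genes known to respond to vitamin D changed in both directions: of 14 tested, 2 were higher and 2 lower (28.6%, against 4.31% of all genes), with a median of -0.13. Both higher genes encode osteocalcin, the hormone-like matrix protein of mature osteoblasts. Bglap had 21.7, 17.4 and 21.6 FPKM in Met500uM, against 6.66, 3.87 and 5.92 FPKM in Met0uM (log2 fold change 1.92 ± 0.18, edgeR adjusted p = 0.000459). Bglap2 had 29.5, 38.7 and 45.3 FPKM in Met500uM, against 13.1, 8.98 and 9.47 FPKM in Met0uM (log2 fold change 1.89 ± 0.17, edgeR adjusted p = 0.000409). The groups were widely separate, but these genes are near-identical copies and reads could have been split between them, and Bglap is also among the osteoblast markers.

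The lower vitamin D-responsive genes were Lrp5 and Pdk4. Lrp5, a Wnt coreceptor that raises bone mass, had 46.3, 48.6 and 46.6 FPKM in Met500uM, against 65.1, 56.7 and 55.9 FPKM in Met0uM (log2 fold change -0.29 ± 0.064, edgeR adjusted p = 0.0272). Its call was lost on leaving out any Met500uM replicate or Met0uM replicate 2 (edgeR adjusted p = 0.0551 to 0.118). Spp1, which encodes osteopontin, was the most abundant of the list at 1106 ± 92.8 FPKM in Met500uM and 1066 ± 56.0 FPKM in Met0uM and did not pass (edgeR adjusted p = 0.562). Cyp24a1, the enzyme that inactivates vitamin D and a sensitive target of Vdr, averaged 0.0218 FPKM in Met500uM and 0.0299 FPKM in Met0uM and was too low to test.

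**Figure D3:**
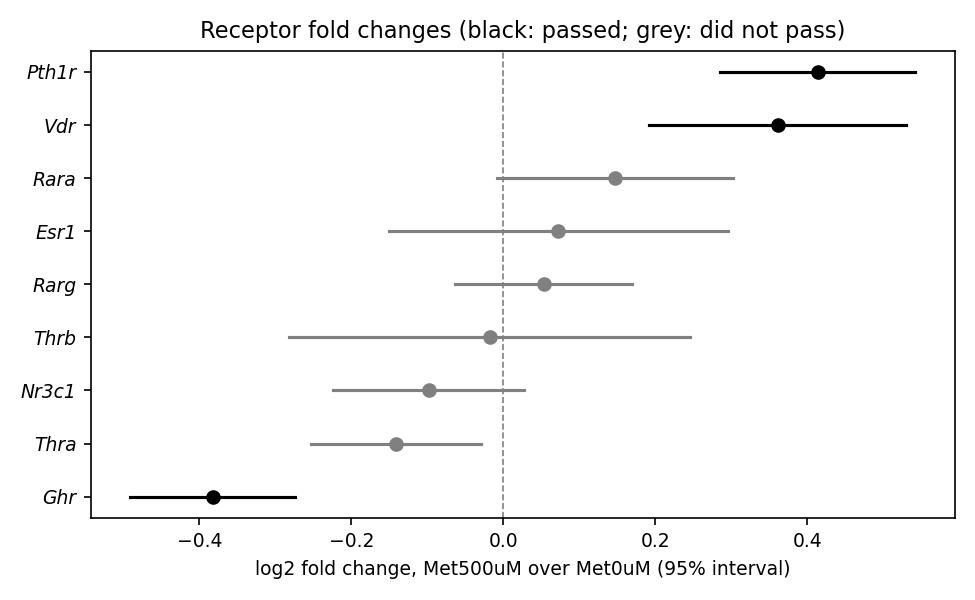
Log2 fold change of each receptor, Met500uM over Met0uM, with its 95% interval; black marks the receptors that passed edgeR's test and grey those that did not. Pth1r at 0.41, Vdr at 0.36 and Ghr at -0.38 stand away from 0, and the interval of Thra, -0.25 to -0.03, also leaves out 0 although it did not pass after adjustment.

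The sequence around the annotated start sites is shown for these 3 receptors because they are the members that passed. Windows are from RefSeq on GRCm38.p6. The table of windows used here holds 7 of the 9 receptors, with 3 starts for Pth1r, 2 for Ghr and 1 for Vdr. Each line gives the 150 bases that end 50 bases after the start, 5′ to 3′ on the gene's own strand, which is the minus strand for all 3. Capitals mark matches, on either strand, to common promoter motifs. The motif with letters GGGCGG is bound by Sp family factors. The TATA motif was searched with the letters TATAAA and places the start of transcription. The motif with letters CCAAT is bound by the factor NF-Y. The core element that many nuclear receptors read has the letters AGGTCA. The E box of the basic helix-loop-helix factors was searched as CACGTG in these windows. The element of the Fos and Jun proteins was searched with the letters TGACTCA. No marked matches overlap each other.
Pth1r, chr9:110747096-110747245: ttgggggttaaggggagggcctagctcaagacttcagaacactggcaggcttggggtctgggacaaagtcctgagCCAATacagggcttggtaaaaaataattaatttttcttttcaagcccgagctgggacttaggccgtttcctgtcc
Pth1r, chr9:110743637-110743786: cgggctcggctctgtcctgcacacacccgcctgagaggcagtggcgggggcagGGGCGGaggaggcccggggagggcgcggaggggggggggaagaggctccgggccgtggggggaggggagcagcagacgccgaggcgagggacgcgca
Pth1r, chr9:110742561-110742710: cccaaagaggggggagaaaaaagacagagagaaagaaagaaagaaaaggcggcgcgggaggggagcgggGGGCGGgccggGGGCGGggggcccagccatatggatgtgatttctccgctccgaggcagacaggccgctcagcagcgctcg
Ghr, chr15:3583303-3583452: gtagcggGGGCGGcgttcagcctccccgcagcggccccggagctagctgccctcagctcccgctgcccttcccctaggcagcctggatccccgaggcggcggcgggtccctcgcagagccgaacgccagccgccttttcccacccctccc
Ghr, chr15:3581793-3581942: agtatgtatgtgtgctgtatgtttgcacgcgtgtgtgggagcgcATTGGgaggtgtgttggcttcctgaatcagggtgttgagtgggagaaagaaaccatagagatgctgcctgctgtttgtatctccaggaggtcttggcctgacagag
Vdr, chr15:97908247-97908396: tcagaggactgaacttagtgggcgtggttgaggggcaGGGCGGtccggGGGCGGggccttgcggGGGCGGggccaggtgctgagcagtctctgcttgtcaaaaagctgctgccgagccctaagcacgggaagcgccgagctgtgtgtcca
In the full windows, from 250 bases before to 50 bases after a start, the 3 starts of Pth1r differed: in the order shown, the first had a GC content of 54.3%, 5 CpG sites and no Sp motif, the second 68%, 23 sites and 1 Sp motif, and the third 69.3%, 27 sites and 4 Sp motifs. The Vdr window had a GC content of 61.3%, 15 CpG sites and 3 Sp motifs. The Ghr windows had a GC content of 67% with 2 Sp motifs and of 52.3% with 1 TATA motif. That TATA match was on the opposite strand and lay upstream of the 150 bases shown, so it was not close to the start. The median over all 32851 promoter windows was a GC content of 52.7% and 7 CpG sites, and 35.7% of them held the Sp motif, 13.6% the TATA motif and 37.4% the NF-Y motif. The nuclear receptor element, the E box and the Fos and Jun element, found in 16.3%, 7.15% and 5.2% of all windows, were not among the letters of these 6 windows. The table gives 1 value per gene, so use of the separate starts was not measured.

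Nr3c1, the glucocorticoid receptor, did not pass. It had 11.7, 11.3 and 10.5 FPKM in Met500uM, against 12.99, 12.1 and 11.8 FPKM in Met0uM. The FPKM ranges were just separate, while the CPM ranges overlapped. The log2 fold change was -0.10 ± 0.057 (95% interval -0.22 to 0.03; edgeR adjusted p = 0.409), on 5809 to 7313 counts per library. The gene lies at chr18:39410545-39519421 on the minus strand. Of 11 heat shock and immunophilin chaperones that hold unliganded steroid receptors, 1 passed (9.09%, against 4.31% of all genes) and was higher. This was the cochaperone Stip1, with 62.6, 70.5 and 70.98 FPKM in Met500uM, against 59.6, 55.5 and 58.8 FPKM in Met0uM (log2 fold change 0.27 ± 0.062, edgeR adjusted p = 0.0328). The groups were separate, but the call was lost on leaving out any library except Met500uM replicate 1 (edgeR adjusted p = 0.0526 to 0.157). The most abundant chaperone, Hsp90ab1, was at 500.1 ± 24.3 FPKM in Met500uM and 465 ± 3.54 FPKM in Met0uM and did not pass (edgeR adjusted p = 0.195).

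Genes known to respond to glucocorticoids changed in both directions. Of 24 tested, 1 was higher and 3 lower (16.7%, against 4.31% of all genes), and the median was -0.01. Tsc22d3, a leucine zipper protein that is among the most general glucocorticoid targets, was lower, at 147, 130 and 135 FPKM in Met500uM, against 178, 186 and 191 FPKM in Met0uM, with no overlap (log2 fold change -0.39 ± 0.062, edgeR adjusted p = 0.00483). Pdk4, which switches fuel use away from glucose and is also on the vitamin D list, had 19.2, 20.8 and 19.3 FPKM in Met500uM, against 25.9, 27.9 and 24.8 FPKM in Met0uM (log2 fold change -0.37 ± 0.060, edgeR adjusted p = 0.00531). Both passed in all 14 alternatives.

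Lcn2, a secreted lipocalin, had 2.16, 1.89 and 2.32 FPKM in Met500uM, against 3.11, 3.61 and 4.13 FPKM in Met0uM (log2 fold change -0.72 ± 0.13, edgeR adjusted p = 0.0110, and 0.0619 without Met500uM replicate 2 and 0.0523 without Met0uM replicate 3). The higher gene was Klf15, a transcription factor of fasting metabolism, at 0.614, 0.650 and 0.848 FPKM in Met500uM, against 0.390, 0.283 and 0.311 FPKM in Met0uM (log2 fold change 1.13 ± 0.24, edgeR adjusted p = 0.0203). Its call was lost on leaving out replicate 2 or 3 of either group (edgeR adjusted p = 0.0502 to 0.110). Fkbp5, a chaperone gene that the receptor itself induces, was at 25.0 ± 0.783 FPKM in Met500uM and 27.1 ± 1.06 FPKM in Met0uM (edgeR adjusted p = 0.509), and the clock gene Per1 at 17.7 ± 1.19 FPKM in Met500uM and 17.9 ± 0.605 FPKM in Met0uM (edgeR adjusted p = 0.886); neither passed. The metallothionein Mt2 was the most abundant of the list at a mean of 454 FPKM and did not pass (edgeR adjusted p = 0.126). Hsd11b1, the enzyme that regenerates active glucocorticoid inside cells, was low, at 0.294 ± 0.113 FPKM in Met500uM and 0.230 ± 0.0342 FPKM in Met0uM (edgeR adjusted p = 0.586).

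Esr1, the main estrogen receptor of bone, was the scarcest member. It had 1.12, 1.08 and 0.966 FPKM in Met500uM, against 1.18, 0.913 and 1.00 FPKM in Met0uM, and the groups overlapped. The log2 fold change of 0.07 ± 0.10 had a 95% interval of -0.15 to 0.30 (edgeR adjusted p = 0.772), on 950 to 1231 counts per library, and changes within that interval could not be told from 0 with these libraries. The gene lies at chr10:4611593-5005614 on the plus strand. The related estrogen receptor Esr2 was lower in level still, at 0.143 ± 0.0419 FPKM in Met500uM and 0.175 ± 0.0184 FPKM in Met0uM. Of 13 estrogen-responsive genes tested with edgeR, 0 passed, against 4.31% of all genes. At an unadjusted p under 0.05 there were 5, a level for which the share of all genes is not given here. DESeq2 called 3 (Ccnd1, Cxcl12 and Rab31), against 1310 of 28792 genes in all (a wider base than edgeR's 17375), and limma 0. Greb1, a selective estrogen target, was at 1.18 ± 0.0855 FPKM in Met500uM and 1.14 ± 0.144 FPKM in Met0uM, close to Esr1 in level, and Ctsd, a lysosomal protease, was the most abundant at a mean of 285 FPKM.

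Of the thyroid hormone receptors, Thra was the main form and Thrb the minor one in every library. Thra had 18.7, 19.8 and 18.5 FPKM in Met500uM, against 22.3, 21.2 and 21.1 FPKM in Met0uM, without overlap. Its log2 fold change was -0.14 ± 0.051, with a 95% interval of -0.25 to -0.03 and an unadjusted p of 0.0177, but it did not pass after adjustment (edgeR adjusted p = 0.163), nor in any of the 14 alternatives (adjusted p = 0.0815 to 0.436). Thrb had 4.40, 4.17 and 3.94 FPKM in Met500uM, against 4.99, 3.36 and 4.68 FPKM in Met0uM. The groups overlapped, and the Met0uM libraries varied most of any receptor, with a coefficient of variation of 19.9%, against 5.52% in Met500uM (log2 fold change -0.02 ± 0.12, 95% interval -0.28 to 0.25, edgeR adjusted p = 0.959). Thrb lies on chromosome 14, plus strand. Its direction turned on leaving out single libraries: 0.09 without Met0uM replicate 1, 0.04 without Met0uM replicate 3 and 0.02 without Met500uM replicate 3.

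Thra made up 81.0%, 82.6% and 82.5% of the summed FPKM of both forms in Met500uM, and 81.7%, 86.3% and 81.8% in Met0uM. The shares overlapped, with a difference of -1.29 percentage points (two-sided exact permutation test, p = 0.7; 3 libraries against 3 cannot go below 0.1). In GENCODE M21 the last exons of Thra share 263 exonic bases (5.7%) with Nr1d1, a clock repressor read from the other strand, although the table's range for Thra ends before Nr1d1 begins. The sources used here do not state if counting was strand-aware. Nr1d1 was at 1.85 ± 0.0806 FPKM in Met500uM and 1.80 ± 0.242 FPKM in Met0uM and did not pass (edgeR adjusted p = 0.812). Of 13 thyroid hormone-responsive genes tested with edgeR, 0 passed, against 4.31% of all genes. At an unadjusted p under 0.05 there were 6, a level for which the share of all genes is not given here. DESeq2 called 1 (Col6a1), against 1310 of 28792 genes in all (a wider base than edgeR's 17375), and limma 0. The list's median was 0.12. Klf9, a direct target of thyroid hormone and glucocorticoid receptors, was at 10.3 ± 0.332 FPKM in Met500uM and 9.45 ± 0.275 FPKM in Met0uM (log2 fold change 0.16 ± 0.055, edgeR adjusted p = 0.155). Col6a1, a collagen chain and the most abundant gene of the list, was at 611 ± 34.6 FPKM in Met500uM and 540 ± 31.2 FPKM in Met0uM (log2 fold change 0.22 ± 0.061, edgeR adjusted p = 0.0763).

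Both retinoic acid receptors were expressed, and neither passed. Rarg, the form typical of the skeleton, had 19.0, 20.7 and 19.3 FPKM in Met500uM, against 19.2, 19.9 and 19.3 FPKM in Met0uM (log2 fold change 0.05 ± 0.053, 95% interval -0.06 to 0.17, edgeR adjusted p = 0.665). Rara had 8.35, 9.69 and 9.20 FPKM in Met500uM, against 8.98, 8.28 and 8.02 FPKM in Met0uM (log2 fold change 0.15 ± 0.071, 95% interval -0.01 to 0.30, edgeR adjusted p = 0.306). The groups overlapped for both, and the interval of Rarg leaves out any change beyond 0.17 on the log2 scale. Rarg lies at chr15:102234938-102257517 on the minus strand, whereas Rara and Thra are both on chromosome 11, plus strand. The third form, Rarb, itself a target of retinoic acid, averaged 0.0169 FPKM in Met500uM and 0.0246 FPKM in Met0uM and was too low to test. Rarg supplied 69.5%, 68.2% and 67.7% of the summed FPKM of Rara and Rarg in Met500uM, and 68.1%, 70.6% and 70.7% in Met0uM (difference -1.36 percentage points; two-sided exact permutation test, p = 0.3).

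The genes of ligand metabolism and transport include those that make, carry and destroy retinoic acid. Cyp26b1, which degrades retinoic acid and responds to it, was the highest of the list, at 47.2 ± 1.82 FPKM in Met500uM and 48.5 ± 4.41 FPKM in Met0uM, with no detectable change (edgeR adjusted p = 0.9995). Crabp2, which carries retinoic acid to its receptors, was at 34.8 ± 3.26 FPKM in Met500uM and 35.5 ± 3.47 FPKM in Met0uM (edgeR adjusted p = 0.976). Aldh1a1, a retinaldehyde dehydrogenase that makes retinoic acid, was lower, at 5.40, 5.46 and 4.50 FPKM in Met500uM, against 7.07, 8.29 and 7.60 FPKM in Met0uM (log2 fold change -0.54 ± 0.088, edgeR adjusted p = 0.00528). The groups were separate, the call held in all 14 alternatives, and Aldh1a1 was the only one to pass of 23 tested genes of ligand metabolism and transport (4.35%, close to the 4.31% of all genes). Of 15 tested genes known to respond to retinoic acid, 1 passed (6.67%, against 4.31% of all genes). Pdgfra, a platelet-derived growth factor receptor of mesenchymal cells, was lower at 33.7, 34.9 and 34.0 FPKM in Met500uM, against 48.1, 44.5 and 42.9 FPKM in Met0uM (log2 fold change -0.36 ± 0.056, edgeR adjusted p = 0.00424). Pdgfra is also 1 of the 6 fibroblast and periosteum markers, which summed to 2356 to 2450 FPKM in Met500uM and 2957 to 3051 FPKM in Met0uM. Of these, 2 were lower (Postn and Pdgfra), against 1.46% of all genes. Postn alone was at 1717 ± 64.6 FPKM in Met500uM and 2311 ± 83.4 FPKM in Met0uM. Col3a1 was at 526 ± 26.6 FPKM in Met500uM and 503 ± 46.8 FPKM in Met0uM and did not pass (edgeR adjusted p = 0.475). The part of these markers in the result was not tested.

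Vdr, Thra, Thrb, Rara and Rarg bind DNA as heterodimers with retinoid X receptors. Rxra, the main such partner here, was at 18.8 ± 0.781 FPKM in Met500uM and 21.7 ± 0.425 FPKM in Met0uM, a log2 fold change of -0.17 ± 0.051 that did not pass with edgeR (adjusted p = 0.0965) and passed with DESeq2 (adjusted p = 0.0277). Rxrb was at 11.5 ± 0.269 FPKM in Met500uM and 12.2 ± 0.243 FPKM in Met0uM (edgeR adjusted p = 0.691). Of 22 tested partners, coactivators and corepressors, 0 passed with edgeR, against 4.31% of all genes. At an unadjusted p under 0.05 there were 5, a level for which the share of all genes is not given here. DESeq2 called 1, Rxra, against 1310 of 28792 genes in all (a wider base than edgeR's 17375), and limma 0. Of 12 related hormone receptors tested, 1 passed (8.33%, against 4.31% of all genes). Npr3, the clearance receptor for natriuretic peptides, was lower at 0.688, 0.745 and 0.713 FPKM in Met500uM, against 1.32, 1.19 and 0.957 FPKM in Met0uM (log2 fold change -0.65 ± 0.12, edgeR adjusted p = 0.0113, and 0.0564 without Met500uM replicate 3 and 0.0586 without Met0uM replicate 2). Npr2, the signalling receptor for C-type natriuretic peptide, was the most abundant of them at 14.0 ± 0.279 FPKM in Met500uM and 15.5 ± 1.55 FPKM in Met0uM (edgeR adjusted p = 0.469).

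Over all 13 lists, which name 276 genes with some in more than 1 list, 210 were tested; 9 were higher, 11 lower and 190 did not pass (9.52% passed, against 4.31% of all genes), with a median log2 fold change of 0.0004. Of these 20 genes, 9 passed in every alternative run: Igf2, Ramp1, Has2, Bglap and Bglap2, which were higher, and Aldh1a1, Pdk4, Tsc22d3 and Pdgfra, which were lower. The other 11 lost the call in at least 1.

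**Figure D4:**
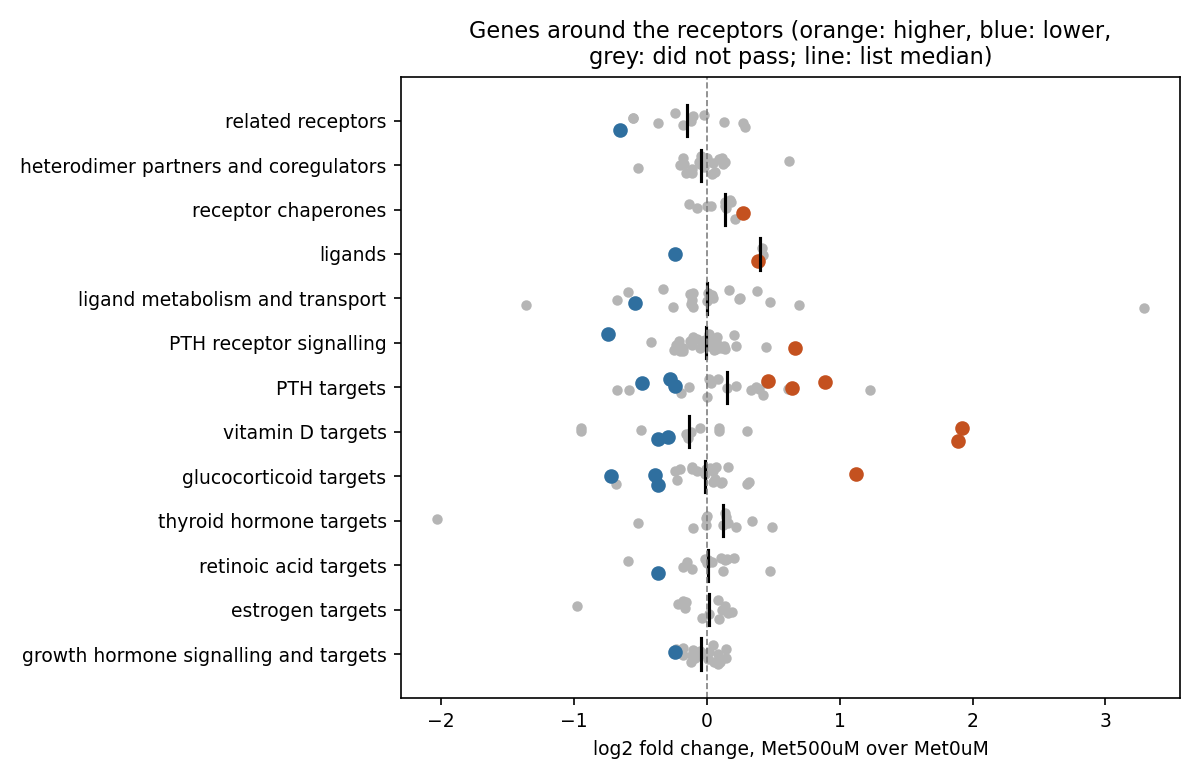
Log2 fold change, Met500uM over Met0uM, of each tested gene in the 13 lists around the receptors; orange points passed and were higher, blue points passed and were lower, grey points did not pass, and the black line is the list's median. The medians lie close to 0 except that of the 4 ligand genes, and the osteocalcin genes Bglap and Bglap2 stand out at 1.92 and 1.89.

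The genes whose log2 CPM followed a receptor most closely over the 6 libraries were taken from 11814 genes with a mean of at least 1 FPKM, as a description. For Pth1r they were Podnl1 (Pearson r = 0.998), Fads2 (0.997) and Emilin2 (0.996), all of which were higher in Met500uM; Emilin2, for example, was at 12.2 ± 0.238 FPKM in Met500uM and 10.8 ± 0.470 FPKM in Met0uM. For Ghr they were Pam (0.997), Vegfd (0.997) and Rab30 (0.996), all lower; Vegfd, a vascular endothelial growth factor, was at 12.7 ± 0.240 FPKM in Met500uM and 16.6 ± 0.537 FPKM in Met0uM. For Vdr they were Hexa (0.996), Chd1 (0.994) and Capn6 (0.993), none of which passed. The 6 points of each correlation fall into the 2 groups and share libraries and scaling, so a high value can come from the difference between the groups alone.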

How the data were processed

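The deposited table lists 28802 mouse genes, each with its FPKM and its estimated count in 6 libraries. FPKM, as computed by the authors, normalises for transcript length and sequencing depth. The deposited estimated counts are whole numbers, but how many reads a count stands for is not stated. Values of 4, 8 and 12 make up 31.8% to 33.6% of those from 1 to 12, so counts divided by 4 were run as an alternative. The tools listed, with no role given, in the submitters' processing notes are HISAT2 and StringTie, edgeR and DESeq2, and fastp and bcl2fastq 2.20. The genome build, the annotation and the use of strand are not given in the sources used here. Of the 9 receptors, Pth1r, Vdr, Esr1, Nr3c1 and Rarg have the same start and end as in GENCODE M21 (GRCm38).

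Here estimated counts were tested as deposited with edgeR 4.0.16 in R 4.3.3 (filterByExpr with a minimum count of 10, TMM, two-sided quasi-likelihood test, Benjamini-Hochberg over all 17375 genes kept, threshold 0.05). Standard errors were obtained as the absolute log2 fold change over the root of the F statistic. All 9 receptors passed the filter. Levels are FPKM, and "expressed" means at least 1 FPKM in all 6 libraries. Shares of paired receptors were compared with an exact permutation test over libraries. Alternatives were DESeq2 1.42.0, library totals in place of TMM, no filter, a mean FPKM of at least 1, counts divided by 4, limma 3.58.1 on log2(FPKM + 1) and log2(FPKM + 0.1), the replicate number as a block, and leaving out each library in turn, 14 in all. Counting error and library preparation cannot be separated with 3 libraries a group.

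The receptors and the 13 gene lists were chosen with earlier results of these data known, so a count over a list is a description. Named genes are the 9 receptors; from each list every gene that passed where 5 or fewer did, otherwise the 4 with the smallest p, and the most abundant gene; genes fixed by name; and for each receptor that passed the 3 genes most correlated with it. Beyond that rule, Nr4a3, Vcam1, Adcy6, Prkacb, Ccnd1, Cxcl12, Rab31, Esr2, Rarb, Calcrl, Stat5b and Myl3 were named after their values were seen. So were the marker genes Ctsk, Lyz2, Runx2, Sp7, Alpl, Ibsp, Sparc, Col1a1, Col1a2, Col2a1, Col11a2, Sox9, Comp, Acan, Dmp1, Mepe, Phex, Pdpn, Sost, Fgf23, Kap, Slc34a1, Aqp2, Cubn, Postn and Col3a1. Pgr is not analysed here. For the zinc fingers, GENCODE M21 transcripts were used, and for promoters RefSeq windows on GRCm38.p6.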

Additional observations from a re-analysis of the deposited data

How the results depend on the processing

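Pth1r and Ghr kept their direction and passed in all 14 alternatives, with adjusted p at most 0.0222 for Pth1r and 0.0165 for Ghr. The number of receptors that passed was 3 in the analysis reported and 2 or 3 in every alternative, the difference being Vdr. The log2 fold change of Vdr no longer passed without a filter on low counts (0.36, adjusted p = 0.0605), in limma with a pseudocount of 1 (0.27, adjusted p = 0.0756) or 0.1 (0.32, adjusted p = 0.0767), and with the replicate block (0.36, adjusted p = 0.0522). Leaving out each library in turn gave 0.33 to 0.43 for Vdr, -0.004 to 0.17 for Esr1 and -0.169 to 0.0859 for Thrb, so that Esr1 and Thrb turned in sign without passing in any of these. The same leave-one-out runs gave a difference in the Thra share of -2.07 to 0.228 percentage points, positive only without Met0uM replicate 2.

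Of the genes around the receptors, 20 passed, against 33 (17 higher and 16 lower) with DESeq2 and 12 (5 higher and 7 lower) without a filter; leaving out each library in turn gave 10 to 20. Over all genes, 749 passed, against 1310 with DESeq2, 432 without a filter and 323 to 968 on leaving out a library. The cause of these differences was not tested, and leave-one-out runs also hold fewer libraries.

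Genes near no change turned in sign without passing. The log2 fold change of Crabp2 was -0.0285 with library totals, -0.0282 and -0.0289 in limma with pseudocounts of 1 and 0.1, -0.001 among genes of at least 1 FPKM, and -0.073 to 0.0803 on leaving out a library. That of Cyp26b1 was 0.0031 with DESeq2, 0.0026 without a filter, 0.0024 with the replicate block, and -0.0482 to 0.0684 on leaving out a library. That of Per1 was -0.0127 with library totals, -0.0163 and -0.0172 in limma, and -0.0178 to 0.0743 on leaving out a library, and that of Nr1d1 was -0.011 to 0.1865 on leaving out a library.

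Same-numbered libraries of the groups did not deviate together (correlations 0.0181, 0.0140 and 0.0019), so the numbers were not taken as pairs. With the replicate block 2 receptors and 18 of the genes around them passed. Of the receptors, Esr1 had the fewest counts, at most 1231 per library, and Thrb the largest standard error, 0.12 on the log2 scale.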
